A study of Mus musculus with 2 samples.

Results

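The transcripts described here are those of 32 extracellular matrix genes in cells of MC38, a mouse colon carcinoma line. The genes were taken by symbol from a fixed list, and all 32 were found once among the 28692 genes of both deposited matrices. They comprise 5 chains of fibrillar collagens, 2 of basement membrane collagen, 3 of type VI collagen, 4 small proteoglycan and dermatopontin genes, 9 matrix glycoproteins, 2 cross-linking enzymes, 4 matrix metalloproteinases and 3 metalloproteinase inhibitors. The list was not chosen on the values of a contrast, but it was drawn up with earlier results of these data known.

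Single cells were profiled with the 10x Chromium 3′ chemistry in 1 library per treatment. MC38 tumours of the strain C57BL/6 albino had been dissociated, and pieces of 40 to 100 µm were cultured in collagen at 2.8 mg/mL in a microfluidic chip. The control library received IgG of clone 2A3 at 10 µg/mL, and the other library received aPD-1 of clone RMP1-14 at 10 µg/mL, an antibody against the inhibitory T cell receptor PD-1. Both cultures were taken on day 6, digested with collagenase for 15 minutes and with trypsin for 5 minutes, and sorted for tumour cells. The sources used here name neither the number of animals nor the sort markers. The series states its aim as profiling the MC38 cells left after PD-1 blockade. With 1 library per treatment there was no test between them, and treatment, culture and library cannot be told apart. Intervals given below are 95% intervals that cover counting error only.

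The IgG matrix held 52720076 unique molecular identifiers (UMIs) in 4351 barcodes, and the aPD-1 matrix held 68385785 UMIs in 523832 barcodes. Levels are in CPM, a gene's UMIs scaled to the total of the cells summed, which were those of at least 5000 UMIs and at most 10% mitochondrial UMIs. There were 2173 such IgG cells, at a median depth of 20714 UMIs, and 3352 aPD-1 cells, at 16581 UMIs. Clusters named by their macrophage or endothelial markers had been left out, which removed 25 IgG and 4 aPD-1 cells of that depth. An unnamed cluster that shared the top genes Gpihbp1 and Igfbp7 with the endothelial cluster stayed in. It held 19 IgG and 9 aPD-1 cells of that depth. In the remaining sums, 12 macrophage markers together stood at 14.8 CPM in the IgG library and 13.1 CPM in the other, and 12 endothelial markers at 30.2 and 30.3 CPM. Ptprc, the pan-leukocyte marker, had 0 and 3 UMIs. The labelled carcinoma identity found little in the epithelial list, whose 11 genes summed to 0.815 and 0.358 CPM, with Krt18 and Cldn4 at 0 UMIs in both libraries. Of 12 fibroblast markers outside the 32 genes, 6 averaged at least 10 CPM: Pdgfra, Pdgfrb, Prrx1, Twist2, Gsn and Lbp. Gsn stood at 69.1 and 27.9 CPM and Lbp at 24.9 and 9.18 CPM, while Thy1 had 0 and 1 UMI and Col14a1 none. Among the cells used, 8 barcodes occurred in both libraries.

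The extracellular matrix is the protein network outside cells. Fibrillar collagens give tensile strength, type IV collagen forms the sheet of basement membranes, and type VI collagen forms beaded filaments that link the fibrils to cells. Small leucine-rich proteoglycans bind and space the fibrils, glycoproteins such as fibronectin connect them to integrins, lysyl oxidases cross-link them, and metalloproteinases and their TIMP inhibitors set their turnover. In tumours, most of this matrix is usually made by fibroblasts, and carcinoma cells contribute varying amounts.

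The 32 genes together made up 0.376% of the UMIs of the IgG cells and 0.304% of those of the aPD-1 cells. Their levels fell into 3 ranges. In both libraries, 10 genes stood above 100 CPM: Col6a1, Col6a2, Dcn, Sparc, Fn1, Col3a1, Col6a3, Timp2, Mmp14 and Timp1. A further 10 averaged at least 10 CPM, and 12 averaged less. Of those 12, 7 stayed under 1 CPM in both libraries: Lum, Thbs1, Postn, Tgfbi, Lox, Mmp3 and Mmp13. A 3′ UMI counts a molecule whatever its length, so levels were not divided by transcript length.

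**Figure D1:**
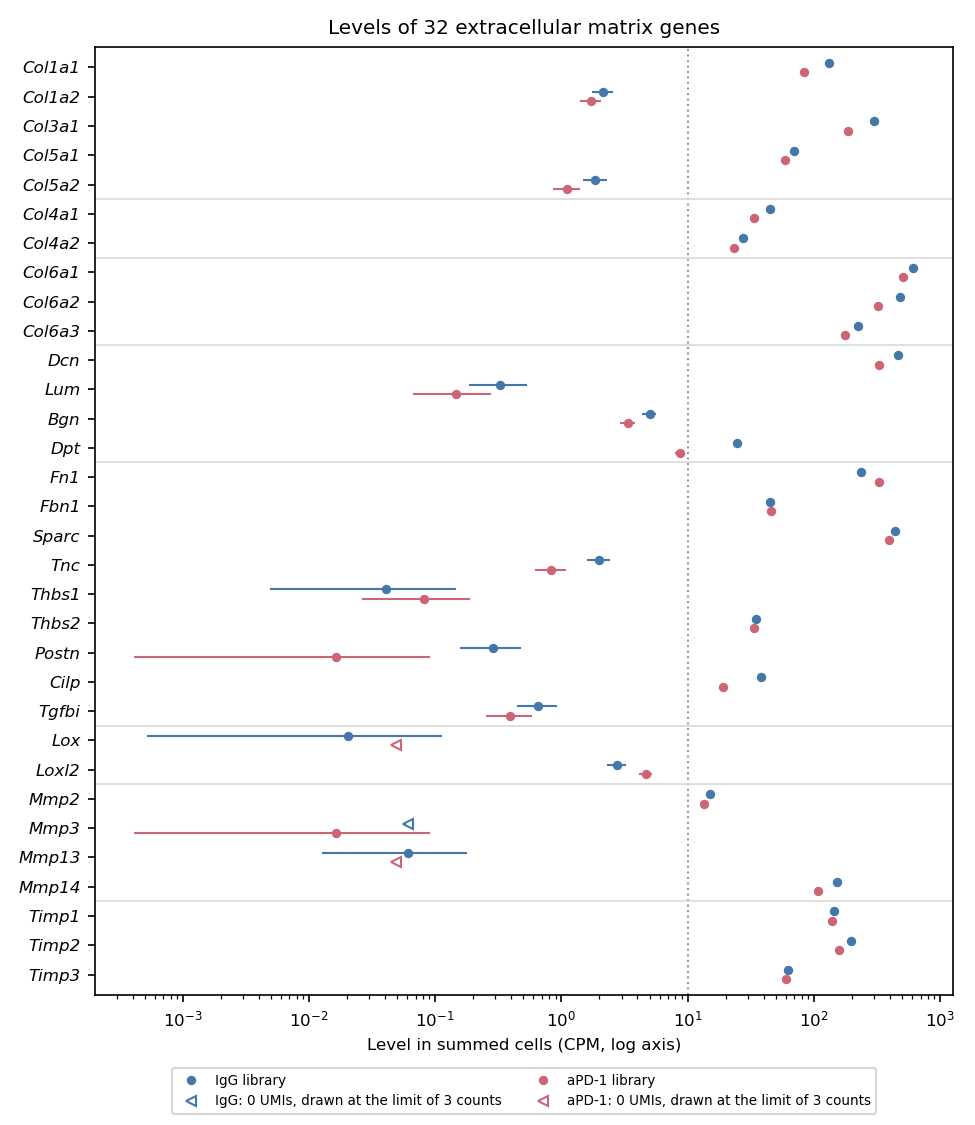
Level of each of the 32 genes on a logarithmic CPM axis, in the order of their roles, with the IgG library in blue and the aPD-1 library in red; bars are 95% counting intervals and the dotted line marks 10 CPM. Genes of one protein family lie far apart: Col1a1 stood at 133 CPM and Col1a2 at 2.12 CPM in IgG, and Dcn at 464 CPM and Lum at 0.326 CPM.

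Among the fibrillar collagens, Col3a1, which encodes the homotrimeric type III collagen, was the most abundant, at 297 CPM in IgG (292.5 to 302.2) and 187 CPM in aPD-1 (183 to 190.0). Col1a1, the alpha 1 chain of type I collagen, stood at 133 CPM (129.8 to 136) and 83.9 CPM (81.7 to 86.3). Each was lower in the aPD-1 library, with no overlap of its intervals. The partner chain of type I collagen was low. Col1a2, whose product joins 2 alpha 1 chains in the usual type I trimer, stood at 2.12 CPM (1.73 to 2.57) and 1.71 CPM (1.40 to 2.07). Col1a1 thus had 62.7 UMIs for each Col1a2 UMI in IgG (interval 51.7 to 76.9) and 49.1 in aPD-1 (40.5 to 60.1). Type V collagen, which sets fibril diameter, showed the same imbalance. Col5a1 stood at 69.1 and 59.4 CPM and Col5a2 at 1.85 and 1.11 CPM, a ratio of 37.3 (30.3 to 46.4) and 53.6 (42.2 to 69.2). Neither the gene models nor the strand setting behind the counts was stated. For Col1a2 and Col5a2, few transcripts and reads that fall outside the counted 3′ end therefore cannot be told apart, and the chain ratios are ratios of counted UMIs.

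The 104 Col1a2 UMIs of IgG came from 45 cells, of which 37 also had Col1a1, and the 105 of aPD-1 from 74 cells. A single IgG cell held 17 of the 104, at 448 CPM of its own, whereas no aPD-1 cell held more than 7. Col1a1 stood at 312 CPM in the IgG cells with a Col1a2 UMI and at 128 CPM in the rest, and at 124 and 82.9 CPM in aPD-1. Col5a2 had 91 UMIs in 61 IgG cells and 68 UMIs in 56 aPD-1 cells. Col3a1 and Col5a2 are neighbours on chromosome 1, their annotated ends 24614 bases apart on opposite strands (chr1:45311538-45349706 and chr1:45374321-45503282, GRCm38), and stood at 297 and 1.85 CPM in IgG.

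The type IV and type VI chains were more even within their families. Col4a1 and Col4a2, which share one trimer in most basement membranes, stood at 44.7 and 27.7 CPM in the IgG and at 33.7 and 23.3 CPM in the aPD-1 library. Their ratio was 1.62 (1.51 to 1.73) and 1.44 (1.35 to 1.55). These genes lie head to head on chromosome 8, chr8:11198423-11312826 and chr8:11312805-11449287, so that their annotated starts overlap by 22 bases. Type VI collagen was the largest family of the 32 genes, with 35.1% of their UMIs in IgG and 33.3% in aPD-1. Col6a1 stood at 615 CPM (608 to 622) and 513 CPM (507 to 519), the highest of the 32 and rank 203 and 219 of all genes. Col6a2 stood at 480.1 CPM (474 to 486) and 324 CPM (319 to 328), and Col6a3, the longest of the 3 chains, at 224 CPM (219.7 to 228) and 178 CPM (175 to 181). Col6a1 over Col6a2 was 1.28 in IgG (1.26 to 1.30) and 1.58 in aPD-1 (1.56 to 1.61), so the aPD-1 library had less Col6a2 for its Col6a1. Col6a1 over Col6a3 was 2.75 and 2.88.

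Of the small proteoglycan genes, Dcn (decorin) was high, at 464 CPM in the IgG cells (458 to 469.97) and 326 CPM in the aPD-1 cells (322 to 331). Lum (lumican), its neighbour 46984 bases downstream on chromosome 10, had 16 and 9 UMIs in all. Bgn (biglycan), the closest relative of decorin, stood at 4.99 CPM (4.39 to 5.66) and 3.35 CPM (2.91 to 3.85). The Bgn UMIs were held by few cells: 85 IgG cells had any, and 1 of them held 39 of the 245 UMIs, at 4636 CPM of its own. Dpt (dermatopontin), a small protein that binds decorin and collagen, stood at 24.5 CPM (23.1 to 25.9) in IgG and 8.71 CPM (7.99 to 9.48) in aPD-1.

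The glycoproteins ranged from the most abundant to the nearly absent. Sparc, a calcium-binding glycoprotein that binds collagen, stood at 439 CPM (434 to 445) and 393 CPM (388 to 398). Fn1 (fibronectin) stood at 235 CPM (231 to 239.7) in IgG and 326 CPM (322 to 331) in aPD-1, the only 1 of the 20 genes of at least 10 CPM whose interval lay above that of IgG. Fbn1 (fibrillin 1, of elastic microfibrils) stood at 44.6 and 45.5 CPM, with overlapping intervals. Cilp, the cartilage intermediate layer protein, stood at 38.0 CPM (36.2 to 39.7) and 19.0 CPM (17.9 to 20.1). Thbs2 (thrombospondin 2) stood at 34.5 and 33.5 CPM, while its relative Thbs1 had 2 and 5 UMIs in all. Tnc (tenascin C) stood at 1.98 CPM (1.60 to 2.41) and 0.830 CPM (0.618 to 1.09). Tgfbi, an integrin-binding protein induced by TGF-beta, had 32 and 24 UMIs. Postn (periostin) had 14 and 1 UMIs, and 9 of the 14 came from 1 IgG cell.

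Cross-linking enzymes were low. Lox, the founding lysyl oxidase, had 1 UMI in the control library and 0 under aPD-1, where a count of 0, taken as at most 3 UMIs, allows up to 0.0488 CPM. Loxl2 stood at 2.75 CPM (2.31 to 3.26) and 4.64 CPM (4.12 to 5.21), a ratio of 1.69 (1.37 to 2.09) that lay under the minimum of 10 CPM used for the counts below.

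The 4 metalloproteinases split into 2 that were measured and 2 that were not. Mmp14, a membrane-anchored collagenase that activates the Mmp2 proenzyme, stood at 152 CPM (149 to 156) and 108 CPM (105 to 110.3). Mmp2, a gelatinase, stood at 15.0 CPM (13.9 to 16.1) and 13.5 CPM (12.6 to 14.4). The secreted collagenase gene Mmp13 had 3 UMIs in the control library and 0 in the other, and the stromelysin gene Mmp3 had 0 and 1, where the same limit of 3 UMIs equals 0.0611 CPM for Mmp3 in IgG and 0.0488 CPM for Mmp13 in the other library. Promoters of this pair and of Mmp14 are shown because they are the silent and the abundant members of 1 enzyme family and differ in their letters. Each is the 250 bases before the RefSeq start on GRCm38.p6, on the plus strand (Mmp3 chr9:7445572-7445821, Mmp13 chr9:7272264-7272513, Mmp14 chr14:54431348-54431597). Capitals mark the TATA box letters TATAAA, the CCAAT box, the GC box letters GGGCGG, the hypoxia element core ACGTG or the AP-1 motif TGANTCA, on either strand.
Mmp3: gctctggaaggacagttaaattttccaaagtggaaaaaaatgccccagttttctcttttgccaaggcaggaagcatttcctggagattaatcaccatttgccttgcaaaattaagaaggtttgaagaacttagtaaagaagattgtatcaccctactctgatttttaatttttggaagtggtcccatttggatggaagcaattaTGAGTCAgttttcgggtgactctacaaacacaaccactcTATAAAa
Mmp13: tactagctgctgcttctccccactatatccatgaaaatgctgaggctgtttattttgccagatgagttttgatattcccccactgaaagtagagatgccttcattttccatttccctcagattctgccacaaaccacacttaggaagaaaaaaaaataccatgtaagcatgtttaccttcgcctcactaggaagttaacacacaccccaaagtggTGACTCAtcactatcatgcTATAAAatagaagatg
Mmp14: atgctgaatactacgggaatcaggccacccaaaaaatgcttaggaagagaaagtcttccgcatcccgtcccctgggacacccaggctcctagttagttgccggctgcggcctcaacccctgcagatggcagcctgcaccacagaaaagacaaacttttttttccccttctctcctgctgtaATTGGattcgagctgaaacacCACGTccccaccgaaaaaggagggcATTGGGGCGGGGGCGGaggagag
Mmp3 and Mmp13 each held 1 AP-1 motif followed by 1 TATAAA. In Mmp3 these began 46 and 7 bases before the start, and in Mmp13 35 and 16 bases before it. Mmp14 held neither, and had 2 CCAAT boxes, 2 GC boxes and 1 ACGTG. RefSeq promoters of 23 of the 32 genes were at hand, with none for Mmp2, the other measured metalloproteinase. Counting every listed start of a gene, the AP-1 motif was in 3 of the 23 (Mmp3, Mmp13 and Col6a1) and TATAAA in 6 (Mmp3, Mmp13, Col3a1, Tnc, Thbs2 and 1 of the starts of Postn). Of 27025 genes in the table, 7.82% and 14.3% held them in such a window. A match of letters is a description and does not show a bound site, and a link between these letters and the levels was not tested.

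The inhibitors were all present. Timp1 stood at 144 CPM (140.5 to 147) and 138 CPM (135.0 to 141), Timp2 at 197 CPM (193 to 201) and 159 CPM (156 to 162), and Timp3, the form that binds the matrix, at 61.9 and 60.0 CPM. Timp2, which also bridges Mmp14 and the Mmp2 proenzyme, had 13.1 UMIs for each Mmp2 UMI in IgG and 11.8 in aPD-1. Against Mmp14 it had 1.29 (1.25 to 1.33) and 1.47 (1.43 to 1.52). Timp1 and Timp3 overlap Syn1 and Syn3 in the annotation, and the sources used here do not state whether counting used strand.

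For some low genes the same libraries held cells in which the gene was counted. In 126 macrophage-like IgG cells, with a median of 1266 UMIs, Tgfbi stood at 1605 CPM and was seen in 65.9% of the cells thinned to 1000 UMIs, against 0.0460% of the cells described here at that depth. Thbs1 stood at 59.0 CPM there (13 UMIs) and at 226 CPM in 26 endothelial-like IgG cells, which also had Bgn at 94.1 CPM, Sparc at 5702 CPM, Col4a1 at 1619 CPM and Col4a2 at 1086 CPM. Those rows therefore count transcripts where a cell has them. Col1a2, Col5a2, Lum, Lox, Mmp3, Postn and Loxl2 each had 0 or 1 UMI in both cell types, so these cells do not show it for those rows. Among the cells described here, single IgG cells held up to 17 Col1a2 UMIs and up to 8 Col5a2 UMIs. With the 25 IgG cells of other types kept in the sum, Thbs1 moved to 1.52 CPM and Tgfbi to 2.73 CPM in IgG. In the 515790 aPD-1 barcodes of under 100 UMIs, which hold free RNA, the 32 genes made up 0.219% of UMIs and Tgfbi stood 64.1 times above its level in the cells. Of the 10 genes above 100 CPM, 9 stood lower in that free RNA than in the aPD-1 cells, from 0.502 of the level in cells for Mmp14 to 0.848 for Dcn, and Timp1 was at 1.04.

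The share of cells with a UMI was counted after thinning every cell to 5000 UMIs. Col6a1 was seen in 86.7% of cells after IgG and 82.3% after aPD-1, Col6a2 in 81.8% and 70.8%, and Sparc in 78.9% and 77.8%. Col3a1 was seen in fewer cells than its level would place it among the others. At 297 CPM it was found in 41.9% of IgG cells, while Mmp14, at 152 CPM, was found in 49.3% and Col6a3, at 224 CPM, in 62.1%. In macrophage-like cells, which should lack it, Col3a1 was seen in 0.794% of cells at 1000 UMIs, against 21.3% of the IgG cells described here. Unthinned, Col3a1 had a UMI in 1315 IgG and 1661 aPD-1 cells, and the tenth of cells with most of it at equal depth held 58.9% and 65.3% of its UMIs. For Col6a1 the same share was 29.8% and 30.1%.

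**Figure D2:**
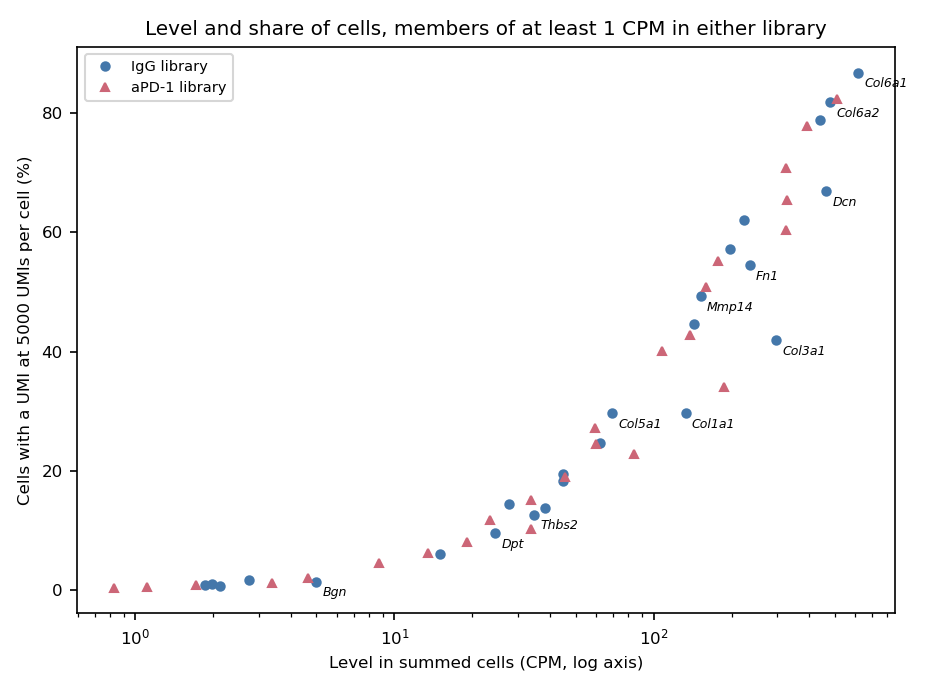
Share of cells with a UMI after thinning to 5000 UMIs per cell against the summed level on a logarithmic CPM axis, for the genes of at least 1 CPM in either library, with circles for IgG and triangles for aPD-1. Col3a1, Col1a1 and Dcn lie below the genes of similar level in both libraries.

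Unequal expression across cells was also measured as the variance over the mean of thinned UMIs (Fano factor), whose median over the 6961 genes was 1.06 in both libraries and whose 99th percentile was 3.84 in IgG and 3.66 in aPD-1. Col3a1 was at 6.99 and 5.75, Col1a1 at 4.74 and 4.01, and Dcn at 4.70 and 3.71, above that percentile in both. Col6a1 was at 2.72 and 2.48, Fn1 at 2.50 and 2.96, and Sparc at 2.39 and 2.01. Col5a1 was at 1.22 and 1.23 and Fbn1 at 1.27 and 1.30, close to the median of all genes. This factor nears 1 at low mean counts, so it does not rank genes of unlike level by how uneven they are. In IgG the mean thinned count was 0.385 UMIs for Col5a1 and 3.43 for Col6a1. The values over all genes were not matched for level. The scarce chains Col1a2, at 1.24 in both libraries, and Col5a2, at 1.60 and 1.08, had few UMIs behind these values.

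Coexpression was described as Pearson r of log-transformed thinned UMIs over the cells of a library, with no p, since cells of 1 library are not replicates. The 19 genes of at least 10 CPM in both libraries gave 171 pairs. Their median r was 0.107 in IgG and 0.0992 in aPD-1, where all pairs of 6715 genes had medians of 0.00330 and 0.00319. In each library 109 of the 171 pairs lay above the 99th percentile of all pairs, at 0.0770 and 0.0708. Pairs share their cells and sparse counts lower every r, so these values rank pairs and do not size them. The pairs of all genes were not matched to the member pairs for level. With a minimum of 30 CPM, 63 of 120 member pairs in each library lay above the 99th percentile at that minimum. The mean of r within clusters gave medians of 0.0770 in IgG and 0.0734 in aPD-1.

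The strongest pairs were chains of fibrillar and type VI collagen. Col6a1 with Col6a2 had r of 0.557 in IgG and 0.516 in aPD-1, and Col1a1 with Col3a1 had 0.510 and 0.502. Col3a1 with Col6a2 had 0.417 and 0.408, and Col3a1 with Dcn 0.422 and 0.377. Col6a3 followed its partner Col6a2 less closely, with 0.294 and 0.300. At the other end, Thbs2 had a negative r with 14 of the other 18 genes in both libraries, the lowest with Col6a1 at -0.10 and -0.09, and Timp1 had a mean r of -0.00185 with the others. Of the 136 pairs without these 2 genes, 135 had a positive r in both libraries.

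**Figure D3:**
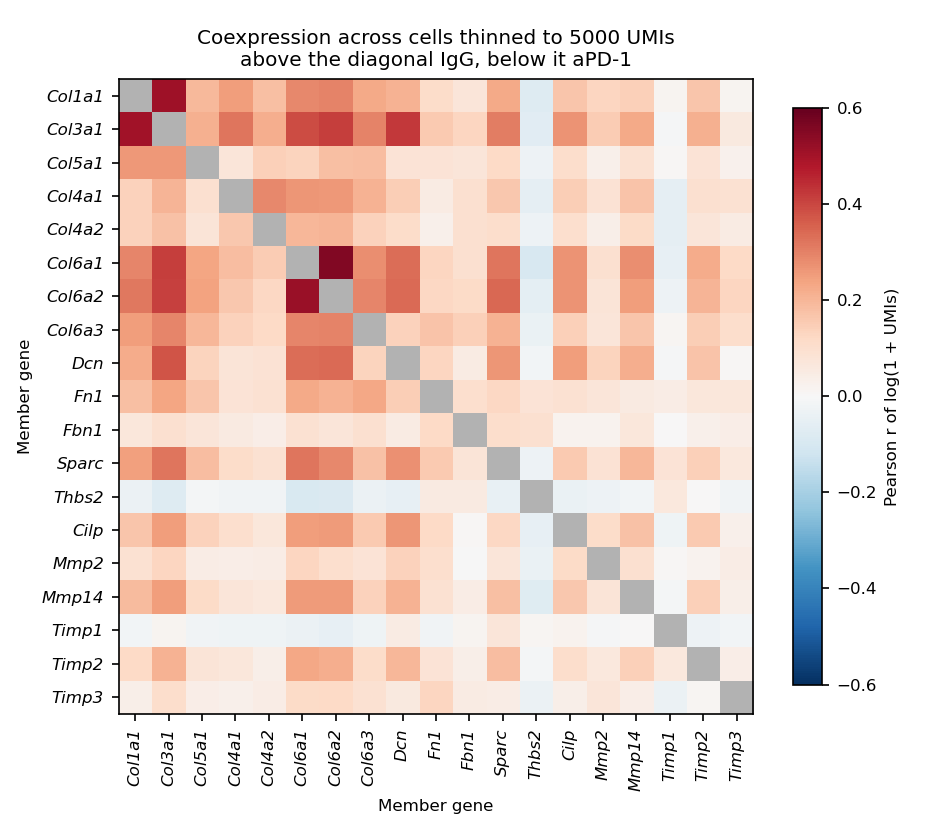
Pearson r between 19 genes across cells thinned to 5000 UMIs, with the IgG library above the diagonal and the aPD-1 library below it; red is positive and blue negative on a scale from -0.6 to 0.6. The collagen, Dcn and Sparc block is red on both sides, and the Thbs2 and Timp1 rows and columns are pale or blue.

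The genes outside the list that were most like the abundant members, among those of at least 10 CPM and by r averaged over both libraries, fell into a few sets. For Dcn and Sparc they were H2-D1, H2-K1 and B2m, the heavy and light chains of MHC class I, with mean r of 0.316, 0.296 and 0.287 for Dcn and 0.326, 0.283 and 0.281 for Sparc. H2-D1 and H2-K1 are near-identical in parts and can share reads. Malat1, a nuclear RNA, and H2-D1 led for Col6a1, with 0.354 and 0.345, and for Col6a2, with 0.341 and 0.331. For Col3a1 they were Ifi27l2a, an interferon-induced gene, at 0.287, Gsn at 0.274 and Dclk1 at 0.272. Ifi27l2a at 0.233 and the matrix glycoprotein gene Emilin1 at 0.212 led for Col1a1. Fn1 was most like Malat1 at 0.197, Trib1 at 0.193 and Aebp1 at 0.188. Timp1 was instead most like Ppia at 0.152, Cd63 at 0.146 and Psma7 at 0.141.

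Cells were clustered without using the 32 genes, and 4 clusters held at least 100 cells of each library. Of the cells used, they held 471 IgG and 1139 aPD-1 cells (cluster 0), 307 and 1189 (cluster 1), 728 and 476 (cluster 2) and 564 and 443 (cluster 3). Cluster 0 was led by Car9, Ero1l, Mt2, Kdm7a and Mt1, of which Car9 and Ero1l are hypoxia-induced. Cluster 1 was led by Hist1h1b, Hist1h2ap, 2810417H13Rik, Top2a and Hist1h1e, which include S phase histones. Cluster 2 was led by Gsn, Cpq, Cxcl9, Ifi27l2a and AW112010, and cluster 3 by the mitotic genes Cdc20, Ccnb1, Cenpe, Hmmr and Tpx2. None met a cell type name.

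Most matrix genes were highest in cluster 2 and lowest in the S phase cluster 1. In IgG 12 of the 20 genes of at least 10 CPM were highest in cluster 2, 6 in cluster 0 and 2 in cluster 3, and 17 were lowest in cluster 1. In aPD-1 these counts were 13, 5, 2 and 13, and 19 of the 20 genes had the same highest cluster in both libraries. Summed over the 32 genes, the level was 5441 and 5128 CPM in cluster 2 (IgG and aPD-1), 4387 and 3927 in cluster 0, 2833 and 2621 in cluster 3 and 2045 and 2081 in cluster 1. Cilp had the widest range of the 20 genes, from 5.43 CPM in cluster 1 to 71.6 CPM in cluster 2 in IgG and from 4.48 to 54.2 CPM in aPD-1. Col3a1 ranged from 84.1 to 506 CPM in IgG and from 76.7 to 421 CPM in aPD-1 over the same clusters. Fn1 was highest in cluster 0, at 365 and 502 CPM, as were Mmp2 at 27.0 and 27.1 CPM and Timp3 at 108 and 98.6 CPM. Thbs2 and Timp1 ran the other way. Both were highest in the mitotic cluster 3, Thbs2 at 51.3 and 50.6 CPM and Timp1 at 171 and 195 CPM, and lowest in cluster 0, at 21.6 and 16.3 CPM and at 95.6 and 95.7 CPM. Fbn1 varied least in IgG, by 1.40-fold between its extreme clusters.

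**Figure D4:**
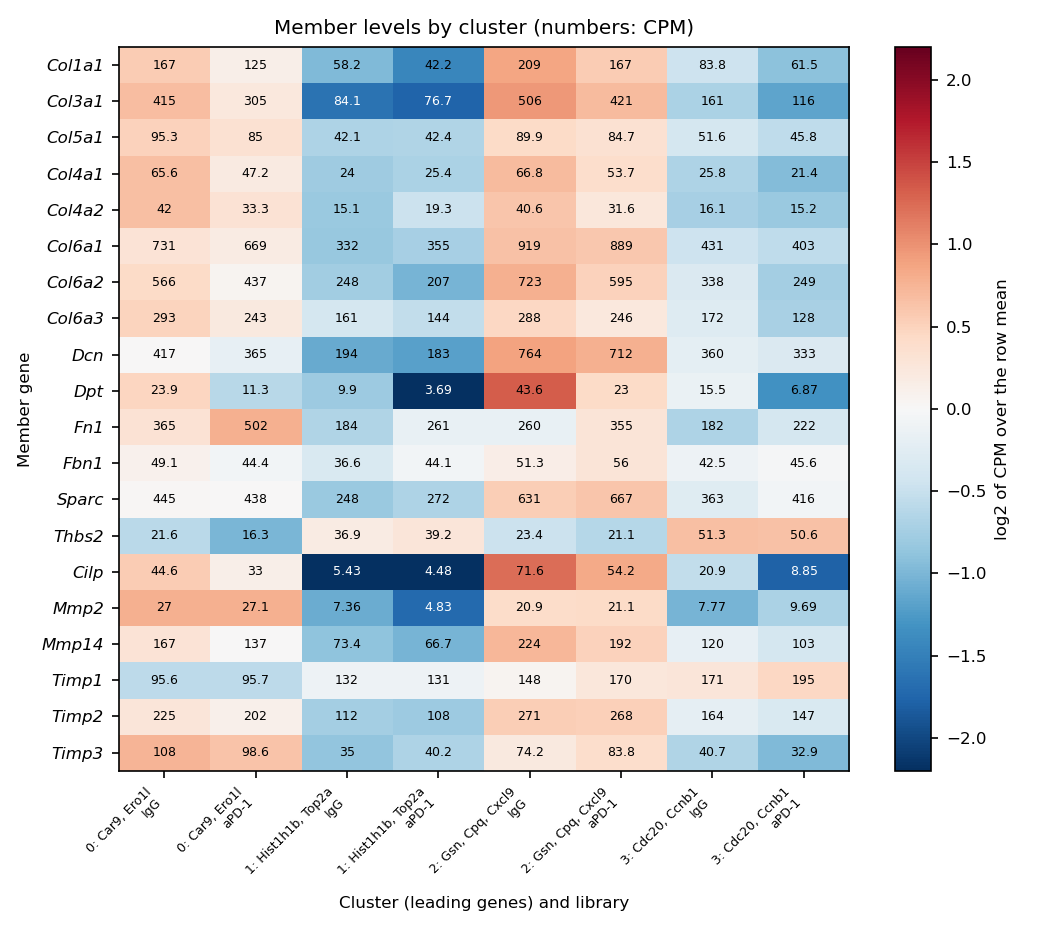
Levels of the 20 genes of at least 10 CPM in 4 clusters of each library; the number in each cell is CPM and the colour is the log2 of that level over the mean of its row. Columns of cluster 2 are red for most collagens, columns of cluster 1 are blue, and the Thbs2 and Timp1 rows are red in cluster 3.

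Between the libraries, the 20 genes of at least 10 CPM leaned lower in aPD-1 in the summed cells. These sums mix the clusters in unlike shares. Cluster 1, lowest in most of these genes, held 307 IgG and 1189 aPD-1 cells, and cluster 2, highest in most, held 728 and 476. The median log2 ratio of aPD-1 over IgG of the 20 genes, with a pseudocount of 1 CPM, was -0.28. Over all 6961 genes of at least 10 CPM it was -0.10. A ratio under 1 was found for 18 of the 20 genes and for 67.0% of all genes, so most genes of the aPD-1 library stood lower as well. Relative to the median of all genes, 15 of 20 were lower. The interval lay under 1 for 16 of the 20 genes (50.2% of all genes) and above 1 for 1 of them (19.6% of all genes). As family medians, Dcn and Dpt were at -0.95, the fibrillar collagens at -0.66 over 3 genes, type VI collagen at -0.33 over 3, the type IV chains at -0.32 over 2, the metalloproteinases at -0.32 over 2, the TIMP inhibitors at -0.06 over 3 and the glycoproteins at -0.04 over 5.

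Few genes passed a size rule. A gene counted as 2-fold lower when its ratio was at most 0.5 and its interval lay beyond 1.5-fold. Of the 20 genes, 1 met this, Dpt, and 0.259% of all genes did. Dpt was at 24.5 CPM in the IgG and 8.71 CPM in the aPD-1 library, a ratio of 0.356 (0.321 to 0.394). At 1.5-fold with an interval clear of 1, 4 of the 20 genes were lower, against 2.84% of all genes. These were Dpt, Cilp at 0.501 (0.465 to 0.539), Col3a1 at 0.628 (0.612 to 0.643) and Col1a1 at 0.631 (0.608 to 0.655). None was higher at 2-fold (0.0718% of all genes) or at 1.5-fold (0.532%). Cilp lay just outside the 2-fold rule, and Col6a2 at 0.675 (0.662 to 0.688), Dcn at 0.703 (0.690 to 0.716) and Mmp14 at 0.707 (0.684 to 0.731) lay just outside the 1.5-fold rule. Fn1 was the exception in direction, with a ratio of 1.39 (1.35 to 1.42) and 98.9% of the 6961 genes at a lower or equal log2 ratio. Sparc was at 0.894, Timp1 at 0.959 and Timp3 at 0.970, closer to 1.

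A cluster led by Gsn and Lbp held most of these transcripts at higher levels, and leaving it out moved the ratios. No cluster at the resolution above had both genes among its top 10, so it was taken from a finer clustering, where it held 412 of the IgG and 163 of the aPD-1 cells. Gsn and Lbp themselves were 2-fold lower in aPD-1, so the size of this cluster is not read as a difference between the libraries. Both genes are on the list of fibroblast markers. Whether the cells of this cluster were tumour cells or fibroblasts was not tested. Inside it, IgG levels were 3.00 times those outside for Dcn (1006 against 335 CPM), 2.61 times for Col3a1 (593 against 227 CPM) and 3.39 times for Cilp (88.1 against 26.0 CPM), but 0.711 times for Thbs2. The aPD-1 levels were 3.60, 2.58, 3.99 and 0.699 times those outside for the same 4 genes. Without it, the median log2 ratio of the 20 genes was -0.18 and that of all genes -0.08. The 1.5-fold rule then held for 2 genes, Dpt at 0.454 (0.402 to 0.512) and Cilp at 0.625 (0.572 to 0.683), while Col3a1 was at 0.754 and Col1a1 at 0.732. Dcn moved to 0.848, Col6a1 to 0.946 and Sparc to 1.01. Inside it, Dcn was at 1.02 (0.978 to 1.06), Col3a1 at 0.745 (0.704 to 0.788), Dpt at 0.416 (0.324 to 0.528) and Fn1 at 1.13 (1.05 to 1.22). Dividing by UMIs outside ribosomal protein and mitochondrial genes also left 2 genes under the 1.5-fold rule.

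**Figure D5:**
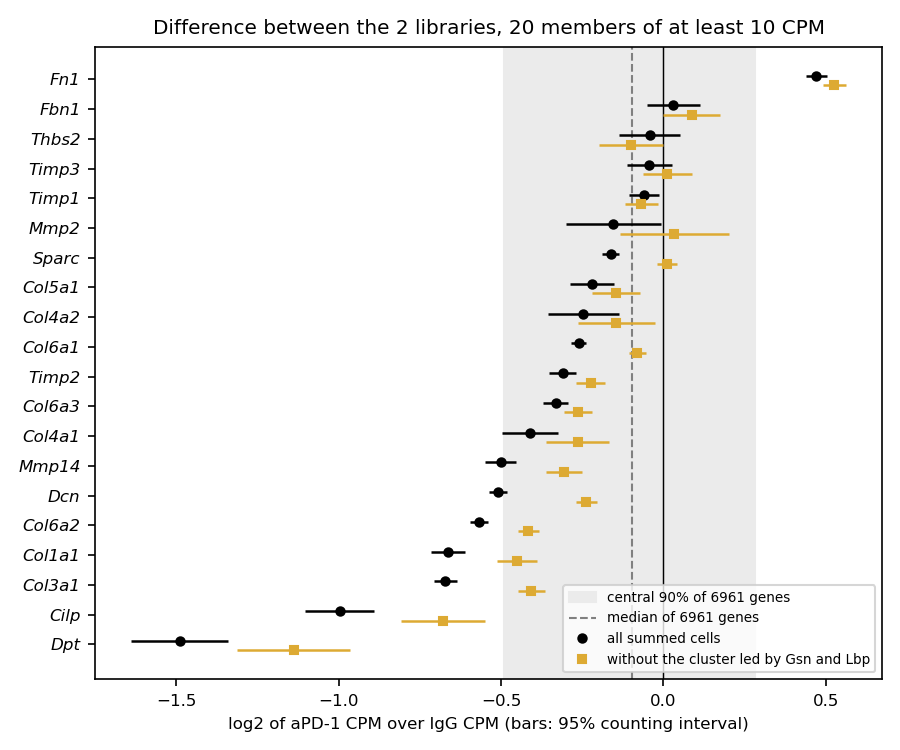
log2 ratio of aPD-1 over IgG with 95% counting intervals for the 20 genes of at least 10 CPM, in all summed cells (black circles) and without the cluster led by Gsn and Lbp (yellow squares); grey is the central 90% of 6961 genes and the dashed line their median. Dpt and Cilp lie left of the grey band in both series and Fn1 lies right of it.

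The median log2 ratio of the 20 genes was -0.23, -0.03, -0.12 and -0.16 within clusters 0 to 3, against -0.28 in the summed cells. Over all genes of at least 10 CPM in the cluster it was -0.06, -0.02, -0.04 and -0.05. Within the 4 clusters, 9 of the 20 genes were lower in aPD-1 in every cluster: Cilp, Col1a1, Col3a1, Col6a2, Col6a3, Dcn, Dpt, Mmp14 and Timp2. Of all 6961 genes, 28.0% were. For 7 of the 9 the interval lay under 1 in each of the 4, against 6.90% of all genes, and Cilp (3 clusters) and Timp2 (2 clusters) were the others. Intervals are narrower for abundant genes, so this share moves with level. Fn1 was higher in every cluster, by a log2 ratio of 0.29 to 0.50, each time with an interval above 1, as were 3.25% of all genes. The differences of Dcn were smaller inside these 4 clusters, at log2 ratios from -0.19 to -0.09, against -0.51 over all cells. Those of Dpt lay between -1.22 and -0.89. Sparc was at -0.02 to 0.19 within clusters. In the finer clustering of 9 clusters, 5 genes (Cilp, Col1a1, Col3a1, Col6a2 and Col6a3) were lower in every cluster, as were 9.54% of all genes, and Fn1 was higher in every cluster, as were 4.37%. The interval lay under 1 in all 9 for Col3a1 and Col6a2 (2.00% of all genes) and above 1 in all 9 for Fn1 (0.991%). Dpt was lower in 8 of the 9 and higher in the other, where it had 19 IgG and 49 aPD-1 UMIs, a ratio of 1.76 (1.02 to 3.16) and a log2 ratio of 0.74. Dcn was lower in 5 and higher in 4, at log2 ratios from -0.51 to 0.14.

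Lists of related genes, drawn up in the same way as the members, give the setting. Of 25 other collagen genes, 6 reached 10 CPM, led by Col5a3, the third type V chain, at 74.2 and 60.4 CPM, then Col27a1 at 58.7 and 47.3 CPM and Col18a1 at 52.6 and 42.2 CPM. None of the 6 passed the 1.5-fold rule, which 2.84% of all genes met as lower, and their median log2 ratio was -0.27. Of 16 laminin and basement membrane genes, 3 did, Hspg2 (perlecan) at 36.9 and 34.5 CPM, Lamc1 at 32.4 and 35.4 CPM and Lamb1 at 11.7 and 10.1 CPM, with a median of -0.09. The machinery for folding and processing collagen was better represented, with 19 of 28 genes at 10 CPM or more, against 6961 of all 28692 genes. Serpinh1, the collagen chaperone HSP47, stood at 572 and 488 CPM, Ppib at 459 and 359 CPM and P4hb at 326 and 349.9 CPM. Their median was -0.28, 16 of the 19 lay under the median of all genes, and 2 were 1.5-fold lower: Pcolce, which enhances removal of the procollagen C-terminal propeptide, at 0.572 (0.555 to 0.590) and the prolyl hydroxylase subunit gene P4ha2 at 0.657 (0.618 to 0.699).

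Among 45 matched other glycoprotein and proteoglycan genes, 7 reached 10 CPM and 2 were 1.5-fold lower, Matn2 at 0.634 and Fbln2 at 0.656. Over all genes of at least 10 CPM, 2.84% were 1.5-fold lower. Spp1 (osteopontin) exceeded every member of the 32, at 754 and 787 CPM. Other proteases and inhibitors had 13 of 40 genes at 10 CPM, of which 3 were 1.5-fold lower, among them Htra1 at 0.627 and the gelatinase gene Mmp9 at 0.629. Of 29 matrix receptor genes, 15 reached 10 CPM and 2 were 1.5-fold lower, Sdc2 at 0.652 and Itgb5 at 0.655. Itga5, the alpha subunit of the main fibronectin receptor, had the highest ratio of the receptors, 1.33 (1.26 to 1.41), at 39.1 and 52.0 CPM. Its partner Itgb1 was at 0.739 (0.718 to 0.761), and the fibronectin ligand Fn1 at 1.39. None of these 6 lists held a gene of at least 10 CPM that was 1.5-fold higher (0.532% of all genes). Of their 120 genes under 10 CPM, 16 were past 1.5-fold lower and 3 past 1.5-fold higher with an interval clear of 1. The 3, named after their values were seen, were Col8a1 at 2.43 (1.54 to 3.94), Ogn at 1.91 (1.21 to 3.09) and Adamts14 at 1.54 (1.30 to 1.83). The same shares over all genes under 10 CPM are not given here, so these counts are not read as particular to the lists.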

How the data were processed

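Single-cell 3′ libraries of 1 IgG and 1 aPD-1 culture were analysed from the deposited matrices of UMI counts per gene and barcode, which are raw and not normalised. The file headers give a software version of 3.0.2, taken here as that of Cell Ranger. The submitters' processing notes list Cell Ranger, Seurat 2.1.0 and mm10, and name no gene annotation. The IgG matrix holds called cells only and the aPD-1 matrix holds all barcodes, so the same floors were applied to both: 5000 UMIs, 500 genes and at most 10% mitochondrial UMIs.

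Cells of at least 1000 UMIs were clustered in scanpy 1.11.5 (2000 variable genes without the members, 30 components, 15 neighbours, leidenalg 0.10.2 at resolution 0.5). Clusters with at least 3 markers of another cell type among their 10 top genes were left out of the sums. The members were not counted among those top genes. Doublets were not removed. CPM was computed from the summed deposited counts, with exact Poisson intervals for levels and exact conditional binomial intervals for ratios, at 95%. Log2 ratios carry a pseudocount of 1 CPM and understate the difference of low genes. Coexpression and shares of cells used cells thinned to 5000 UMIs. With 1 library per group no p-value was computed. The steps were tested on simulated counts.

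The members, the related gene lists and the cell type markers were chosen with earlier results of these data known. All members are named, as are the 3 most abundant and the extreme 2 in each direction of each related list, the 3 genes most like each member of at least 50 CPM (a selection is printed), and 5 top genes per cluster. A gene taken by this rule is not reported here. Of the listed symbols, Ltbp4 matched 2 rows and was not used. Promoters are from RefSeq (GRCm38.p6) and gene positions from GENCODE M21 (GRCm38), which may differ from the annotation behind the counts. Alternatives changed the floors, the cells, the scaling, the minimum level, the pseudocount and the clustering.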

Additional observations from a re-analysis of the deposited data

Results flagged for a closer look

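Barcodes left out for over 10% mitochondrial UMIs, 89 in IgG and 81 in aPD-1 of at least 5000 UMIs, still held matrix transcripts. The 32 genes summed to 5718 CPM there in IgG (interval 5553 to 5887) and 4353 CPM in aPD-1 (4187 to 4524), against 3756 and 3044 CPM in the cells used and limits of 3.76 and 5.02 CPM for a count of 0. Relative to UMIs outside mitochondrial genes the values were 6575 and 5064 CPM in those barcodes and 3872 and 3155 CPM in the cells used. Other cell types were left out of the cells used but not of those barcodes, so the sets are unlike. In endothelial-like IgG cells the 32 genes made up 1.09% of UMIs.

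For 3 genes the difference between the libraries pointed in opposite directions in different clusters, with counting intervals on either side of a ratio of 1. The difference between clusters was not tested, since each cluster has 1 library per treatment. Col4a2 had a log2 ratio of -0.35 in cluster 2 and 0.33 in cluster 1. Col6a1 was at -0.13 in cluster 0 and 0.10 in cluster 1. Timp3 was at -0.30 in cluster 3 and 0.19 in cluster 1. In each of the 3, the highest value of the 4 clusters was in the S phase cluster. The interval lay under 1 in 3 clusters for Col6a1 and in 2 each for Col4a2 and Timp3. For Timp3 it lay above 1 in 2 clusters, the other being cluster 2 at 0.17. The share of all genes with such opposite intervals is not given, so this count is not read as particular to the members.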

How the results depend on the processing

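No paired analysis was possible because each group has 1 library. The median log2 ratio of the 20 genes kept its sign in all 14 alternatives, and moved to -0.18 without the cluster led by Gsn and Lbp, -0.19 with ribosomal protein and mitochondrial UMIs left out of the total, -0.19 centred on the median of all genes and -0.24 over 32 genes with no minimum. The count at 2-fold lower was 2 with a floor of 10000 UMIs, with at most 5% mitochondrial UMIs or without the 5% of cells with most UMIs, 3 with no minimum and 0 with a minimum of 30 CPM, which leaves out Dpt. At 1.5-fold lower it was 2 without the cluster led by Gsn and Lbp, under either of the other scalings or with a minimum of 30 CPM, and 7 with no minimum, where 1 gene was 1.5-fold higher. Lower in every cluster were 15 genes in the coarser clustering of 2 clusters and 5 in the finer of 9, and 2 genes were higher in every cluster of the coarser. Of all 6961 genes, 9.54% were lower in every one of the 9 clusters. Shares over all genes are not given for the coarser clustering or for the other alternatives, so those counts are not read as particular to the members. The median r of member pairs stayed above that of all pairs in all 8 alternatives and both libraries. Of the single genes, Fbn1, Sparc, Thbs2, Mmp2, Timp1 and Timp3 changed sign under at least 1 alternative, and none of them was called.

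The summed level of the 32 genes in IgG and aPD-1 was 3713 and 2965 CPM with a floor of 10000 UMIs, 3674 and 2898 CPM with at most 5% mitochondrial UMIs, 3176 and 2886 CPM without the cluster led by Gsn and Lbp, 3967 and 3160 CPM without the 5% of cells with most UMIs, 4107 and 3379 CPM with each cell weighted equally, and 6017 and 5227 CPM of UMIs outside ribosomal protein and mitochondrial genes. In IgG alone it moved to 3791 CPM with at most 20% mitochondrial UMIs and to 3799 CPM with all cells kept. At this depth 1 UMI equals 0.0204 CPM in the IgG sum and 0.0163 CPM in the aPD-1 sum, so Mmp3, Mmp13 and Lox, with at most 3 UMIs in either library, are at or under the limit for a count of 0, and no ratio is read for them.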
